A study of Mus musculus with 12 samples.

Results

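The experiment compared skeletal muscle of mice injected with recombinant KC, the mouse chemokine encoded by Cxcl1, with muscle of mice injected with vehicle. Its members were the 4 arrays titled KC 1 to KC 4 and the 3 vehicle arrays titled Veh Control 1, Veh Control 2 and Control 4 (vehicle 1, 2 and 4 below), 7 of the 12 arrays of the study. All 23185 rows with a single gene symbol, of 25206 rows in all, were tested. The other 5 arrays came from mice injected with recombinant IL-8 and are used below only where KC is set beside IL-8. KC and IL-8 were given intraperitoneally at 50 µg/kg, and the vehicle was 0.1% BSA, every other day for 6 days. The labels name the tissue only as skeletal muscle. The study's methods place the vehicle and IL-8 arrays in the tibialis anterior (TA) of 8-week-old male C57BL/6J mice, while the strain, sex, age and muscle of the KC mice were not stated in any source used here. The design text counts each array as a mouse, and p-values measure the spread between these arrays.

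KC is a neutrophil-attracting CXC chemokine that signals through the receptor CXCR2. Mice have no gene for IL-8, and KC is often used as its functional counterpart in that species. CXCR2 is a G protein-coupled receptor carried mainly by neutrophils and also found on other cells, and its engagement activates ERK1/2 among other kinases. The stated question was which gene networks in skeletal muscle differ after systemic delivery of either chemokine.

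Values are log2 intensities, so a difference of 1 is a doubling, and the level of one gene is not set against that of another. Calls required a p of 0.1 or less in limma's moderated test after Benjamini-Hochberg adjustment, together with a difference of 1.5-fold or more. KC against vehicle, 0 of 23185 genes were called (0%), and the smallest adjusted p in limma was 0.994. Without adjustment, 923 genes (3.98%) had a p under 0.05. Of these, 384 (1.66%) were higher with KC and 539 (2.32%) were lower. The arrays of the groups did not overlap for 579 genes higher with KC (2.5%) and 567 genes lower (2.45%). A mean difference of at least 1.5-fold at any p was seen for 115 genes higher (0.496%) and 262 genes lower (1.13%). A t-test with unequal variances gave 0 genes after adjustment and 690 at an unadjusted p under 0.05. An exact permutation test over the 35 splits of the arrays gave 0 and 659, with 0.0286 as the smallest p it allows. The histogram of p-values for KC showed no excess at small p, and its first bin held fewer genes than an equal share.

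**Figure D1:**
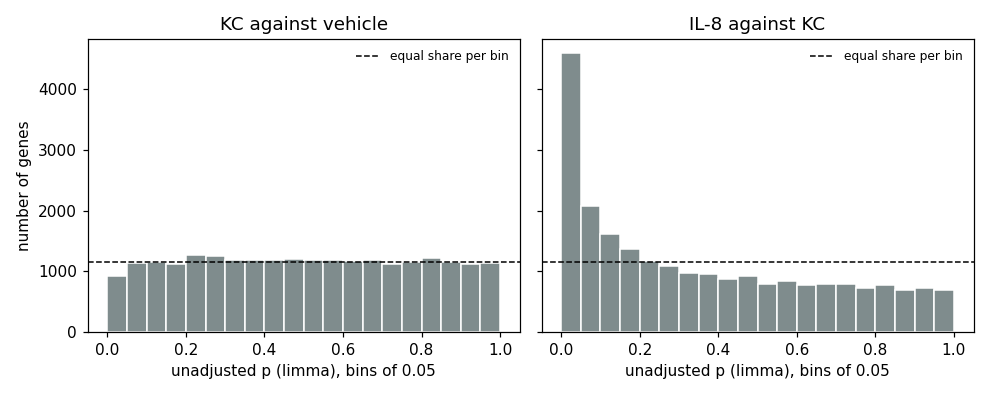
Number of genes (y axis) by unadjusted limma p in bins of 0.05 (x axis) for KC against vehicle (left, 7 arrays) and IL-8 against KC (right, 9 arrays), with an equal share per bin dashed. The first bin holds 923 genes for KC against vehicle and 4598 for IL-8 against KC.

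The precision of the comparison can be read from the intervals. The 95% interval of the difference lay within 1.5-fold in either direction for 13409 genes (57.8%) and within 2-fold for 21962 genes (94.7%), and the median distance from the difference to either bound was 0.398 on the log2 scale. The number of arrays limits this precision. The median SD of a gene was 0.230 over the vehicle arrays and 0.206 over the KC arrays.

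Muscle genes were read in both groups as a check of the tissue, and fiber type was not judged from their levels. Ckm, the muscle creatine kinase, read between 11.98 and 12.58 on the 7 arrays. Myh4, the fast IIb myosin heavy chain, read between 11.98 and 12.46, and Acta1, skeletal actin, between 12.09 and 12.38. Myh7, the slow myosin heavy chain, read between 2.11 and 2.49. None of the 16 fast fiber genes and none of the 14 slow fiber genes reached an unadjusted p of 0.05, and their medians were 0.03 and -0.05.

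Several arrays stood apart from others of their own group. Transcripts of the liver, which muscle is not known to make in quantity, were present in 2 of the 3 vehicle arrays. Alb, serum albumin, read 3.85, 10.15 and 9.78 in vehicle 1, 2 and 4, against 4.11, 4.28, 5.36 and 3.39 in KC 1 to 4. Fgb, the fibrinogen beta chain, read 1.99, 6.84 and 5.91 with vehicle and between 1.95 and 2.19 with KC. Vehicle 1 thus read like the KC arrays for both genes. The mean of the 18 measured liver markers was 2.99, 6.42 and 6.07 in the vehicle arrays and between 3.02 and 3.33 in the KC arrays. Of these markers, 17 were lower with KC at an unadjusted p under 0.05, with a median of -1.81 against -0.004 over all genes. With the liver-positive arrays as a block, so that KC was set against vehicle 1, that median was 0.15.

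Tendon transcripts divided both groups. Fmod, fibromodulin, a proteoglycan of tendon collagen, read 7.16, 9.65 and 10.21 with vehicle and 5.50, 9.79, 7.05 and 10.16 with KC. Tnmd, tenomodulin, a tendon membrane protein, read 5.39, 8.39 and 8.17 with vehicle and 3.98, 7.74, 5.28 and 8.51 with KC. Both genes were high in vehicle 2, vehicle 4, KC 2 and KC 4 and low in vehicle 1, KC 1 and KC 3. The tendon list had 0 of 10 members at an unadjusted p under 0.05, with a median of -0.64.

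The mean of 1395 chemoreceptor genes, which muscle is not known to express, was 1.70, 2.06 and 2.02 in vehicle 1, 2 and 4 and 1.72, 1.70, 2.00 and 2.01 in KC 1 to 4. It was between 1.60 and 1.71 in the IL-8 arrays. The first principal component of the 7 arrays held 38.9% of the variance. It placed vehicle 1 at -31.7 beside KC 1 at -34.3, and vehicle 2 and 4 at 40.6 and 24.8, with KC 2, 3 and 4 at -15.9, -0.49 and 17.1. Vehicle 1 correlated with the KC arrays at 0.973 to 0.985 across genes and with vehicle 2 and 4 at 0.965 to 0.972. The part of liver, tendon and chemoreceptor signal in the results below was not tested beyond the values given beside them.

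**Figure D2:**
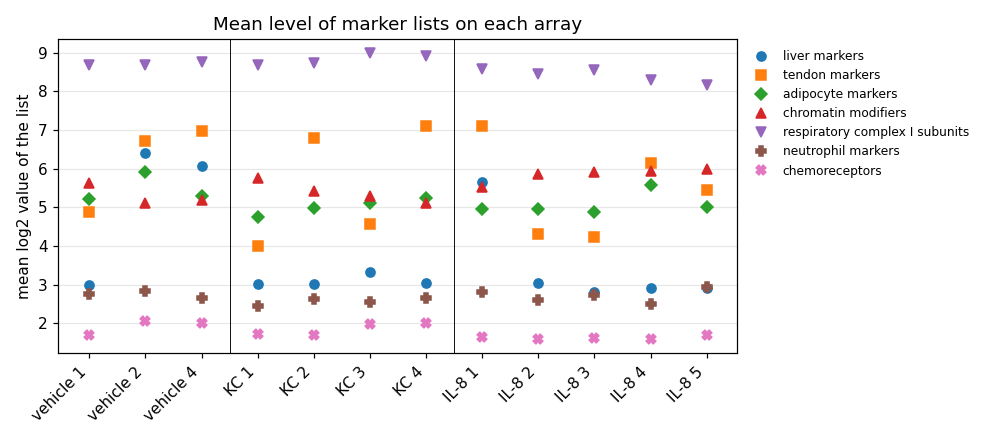
Mean log2 value (y axis) of 6 gene lists and of the chemoreceptor genes on each of the 12 arrays (x axis), with lines between the vehicle, KC and IL-8 groups. Liver markers stand at 6.42 and 6.07 in vehicle 2 and 4 against 2.99 in vehicle 1, and tendon markers divide the KC arrays into 4.01 and 4.57 against 6.79 and 7.10.

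Leaving out vehicle 1 changed the count. Against vehicle 2 and 4 alone, 92 genes were called in limma, 5 higher with KC (0.0216%) and 87 lower (0.375%). The 87 lower genes were led by liver genes such as Alb (-5.68) and Fgb (-4.26) and included 18 of the 18 measured liver markers. In vehicle 1, the value of all 87 lay nearer to the KC mean than to the mean of vehicle 2 and 4, and for 53 it lay within the KC arrays. None of the 87 was called with vehicle 1 kept in, so the choice favored such values and they are a description only. The 5 higher genes were Hspa1a, Postn, Cycs, Mir133a-1 and Gm10698, named because they were all that were called. Leaving out any other single array gave 0 calls.

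The Cxcl1 transcript itself did not differ detectably. It read 3.18, 2.74 and 3.86 in the vehicle arrays and 3.38, 2.99, 3.47 and 3.32 in the KC arrays. The KC values lay inside the vehicle range, and the difference was 0.03 with a 95% interval of -0.52 to 0.59. An injected protein carries no transcript, so the array shows only the endogenous gene. Cxcl1 lies on chromosome 5 (chr5:90891245-90893121, GRCm38.p6), and its proximal promoter is shown because NF-kB is a known activator of this gene. The stretch below holds the 120 bases before the start of transcription on the + strand (chr5:90891125-90891244, RefSeq), and capitals mark the match to GGGA, any base and TTTCC.
Cxcl1: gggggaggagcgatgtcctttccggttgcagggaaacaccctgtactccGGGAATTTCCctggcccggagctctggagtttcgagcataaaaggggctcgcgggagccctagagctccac
The match lies 71 to 62 bases before the start. Searched on both strands, these letters occur in 135 of 32851 RefSeq promoter windows (0.411%). The windows searched are longer than the 120 bases shown. Among the 18 measured genes of the NF-kB pathway and targets, 0 reached an unadjusted p of 0.05, and their median was 0.08.

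The other CXCR2 ligands and receptors were likewise close to vehicle, with 0 of 13 members at an unadjusted p under 0.05 and a median of -0.08. Cxcl2, a further CXCR2 ligand, differed by -0.03 (95% interval -0.41 to 0.35). Cxcl5, also a ligand of this receptor, differed by -0.07 (-0.39 to 0.26). Both were dim, with all KC values between 1.71 and 2.09. Cxcr2, the receptor, read 2.76, 2.86 and 2.61 with vehicle and 2.41, 2.79, 2.85 and 3.03 with KC, a difference of 0.03 (-0.35 to 0.41). Cxcr1, the related receptor, differed by -0.15 (-0.45 to 0.15). Ackr1, a decoy receptor of red cells and venules that binds these chemokines without signaling, differed by -0.20 (-0.52 to 0.13). Ppbp, a platelet CXCR2 ligand precursor, had the lowest difference in the list, -0.60 (-1.31 to 0.11). These intervals leave room for differences of the size of the call threshold for Cxcl1 and Ppbp, and Cxcr2 and Cxcl2 lay within 1.5-fold.

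Neutrophils are the classic target of KC. Of 15 neutrophil markers, 0 were higher and 1 was lower with KC at an unadjusted p under 0.05, and 12 lay below 0 with a median of -0.19. The 1 was Elane, neutrophil elastase, which read 2.96, 2.94 and 2.93 with vehicle and 2.58, 2.67, 2.59 and 2.76 with KC (difference -0.29). S100a8, an abundant granulocyte calcium-binding protein, differed by 0.10 (95% interval -0.21 to 0.42). Its partner S100a9 differed by -0.29 (-0.75 to 0.16), and Mpo, myeloperoxidase, by -0.29 (-0.68 to 0.11). Most of these markers were dim on all arrays. In whole muscle, fewer cells of a type and less RNA per cell cannot be told apart. Macrophage and monocyte markers had a median of -0.11, with 1 of 16 lower at an unadjusted p under 0.05, which was Cd14, the lipopolysaccharide co-receptor (-0.49).

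The pathways downstream of CXCR2 and of cytokine receptors showed no call. Of 21 genes of the ERK pathway and its feedback, 1 was higher at an unadjusted p under 0.05 and the median was -0.003. It was Myc, a growth-promoting transcription factor, at 4.54, 4.52 and 4.35 with vehicle and 5.23, 4.91, 5.06 and 4.44 with KC. Its groups overlapped through KC 4. Dusp6, a phosphatase induced by ERK that limits it, differed by 0.10 (95% interval -0.30 to 0.49). Of 19 genes of the IL-6 receptor and STAT list, 0 reached an unadjusted p of 0.05 and the median was 0.14. Stat3, the transcription factor of that pathway, differed by 0.41 (-0.10 to 0.92), and Socs3, its feedback inhibitor, by -0.06 (-0.53 to 0.41). Of 19 interferon-stimulated genes, 1 was lower at an unadjusted p under 0.05, the immunoproteasome subunit Psmb8 (-0.49).

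With no gene called, the genes nearest to a call are given as a description. They are the 12 in each direction with the smallest p among genes that did not overlap between groups and differed at least 1.5-fold. Predicted genes and clones, chemoreceptors, microRNA and small nucleolar RNA genes, and immunoglobulin and T cell receptor segments were left out of this choice. Since p chose them, their tests support nothing, and each had an adjusted p in limma of 0.994 or above.

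The lower gene with the smallest p was Nrarp, a target and feedback inhibitor of Notch signaling. It read 4.01, 3.98 and 3.81 with vehicle and 3.20, 3.24, 3.23 and 3.21 with KC. The KC arrays had an SD of 0.018 and all lay below the vehicle arrays, a difference of -0.71 ± 0.13 (SE). The difference was -0.79 with the liver-positive arrays as a block. Rps13, a protein of the small ribosomal subunit, read 4.65, 4.31 and 4.66 with vehicle and 3.04, 3.40, 3.14 and 3.99 with KC (-1.15 ± 0.23). Most ribosomal protein genes have near-identical processed copies, so such a value is uncertain. Ugt2a2, a glucuronosyltransferase whose gene shares sequence with its neighbor Ugt2a1, read 3.43, 2.85 and 3.01 with vehicle and 1.94, 2.59, 2.06 and 1.55 with KC (-1.06 ± 0.24).

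Of the 12 lower genes, 4 encode proteins made mainly by the liver or kidney. For Ambp and Pon1, as for Alb, vehicle 1 lay below vehicle 2 and 4. Ambp, the precursor of alpha-1-microglobulin, read 2.21, 3.67 and 3.72 with vehicle and 1.52 to 1.85 with KC. Pon1, a serum paraoxonase, read 2.28, 4.13 and 3.32 with vehicle and 1.70 to 2.18 with KC. Vehicle 1 lay above every KC array for both, as the choice of genes required. With the liver-positive arrays as a block, the differences went from -1.48 to -0.49 for Ambp and from -1.33 to -0.36 for Pon1. Cyp4a12a, a fatty acid hydroxylase of kidney and liver, went from -0.77 to -0.41. Selenbp2, a liver protein near-identical to Selenbp1, went from -0.64 to -0.44. The remaining lower genes included Mybphl, a myosin-binding protein of heart (-0.67), Rhbdd2 (-0.66) and Reep6, which shapes the endoplasmic reticulum (-0.65). With the block these were -0.58, -0.70 and -0.56. The others were Nlrp1b, an inflammasome sensor (-0.73), and Obox2, an oocyte homeobox gene (-0.80). With the block they went to -0.38 and -0.33, and vehicle 1 was the lowest vehicle array for both. Several of the lower genes were dim. Nlrp1b and Cyp4a12a read at most 2.71 and Mybphl at most 2.92 on the 7 arrays, whose medians lay between 3.31 and 3.48. The KC values of Ambp, Pon1, Ugt2a2 and Obox2 also lay below these medians. Whether muscle expresses these genes was not tested.

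Among the 12 higher genes, Hspa1a, the inducible heat shock protein HSP70, had the largest difference. It read 3.94, 3.10 and 2.24 with vehicle and 4.86, 4.19, 5.00 and 4.36 with KC. The vehicle arrays ranged widely, all KC arrays lay above them, and the difference was 1.51 ± 0.36 (SE), 0.66 with the liver-positive arrays as a block. Its near-identical neighbor Hspa1b read 3.22, 3.52 and 3.18 with vehicle and 4.42, 2.66, 2.98 and 3.85 with KC, a difference of 0.17 (95% interval -0.65 to 1.00). Probes for such copies can share signal, so both values are uncertain. The Hspa1a promoter is shown because heat shock factor binds inverted GAA units there. The 120 bases before the start on the - strand are given below (chr17:34972157-34972276, GRCm38.p6, RefSeq), with capitals at the match to GAANNTTC.
Hspa1a: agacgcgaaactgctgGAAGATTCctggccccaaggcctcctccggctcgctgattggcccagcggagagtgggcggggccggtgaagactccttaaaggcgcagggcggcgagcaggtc
The match lies 104 to 97 bases before the start. The same letters, read alike on both strands, occur in 2582 of 32851 promoter windows (7.86%), which are longer than the stretch shown.

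The heat shock list as a whole had 3 of 23 members higher and 1 lower at an unadjusted p under 0.05, with 19 above 0 and a median of 0.19. Hsph1, an HSP110 family chaperone that releases ADP from HSP70, differed by 0.63 (95% interval 0.07 to 1.18), and Dnajb1, an HSP40 co-chaperone, by 0.45 (0.09 to 0.81). Hspb7, a small heat shock protein of muscle, was the lower member (-0.64). Hspa8, the constitutive HSP70, differed by 0.04 (-0.29 to 0.37).

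The other higher genes near a call had varied roles. Actl6a, an actin-related subunit of chromatin remodeling complexes, read 4.91, 4.84 and 4.83 with vehicle and 5.64, 5.29, 5.60 and 5.65 with KC (0.68 ± 0.14). Krcc1 read 5.24, 4.76 and 5.12 with vehicle and 5.79, 5.78, 5.78 and 5.68 with KC (0.72 ± 0.15). Slc25a25, a mitochondrial carrier of ATP-Mg and phosphate, read 5.77, 5.96 and 6.35 with vehicle and 6.83, 7.17, 6.64 and 6.87 with KC (0.85 ± 0.18). All 3 genes had every KC array above every vehicle array, as the choice of genes required. Postn, periostin, a matrix protein of remodeling tissue, read 5.83, 5.43 and 4.79 with vehicle and 6.06, 6.34, 6.43 and 6.22 with KC (0.91 ± 0.23, and 0.44 with the block). The remaining genes were Phf20, a chromatin reader (0.59), Cdc5l, a splicing factor (0.62), Cars, cysteinyl-tRNA synthetase (0.60), Gad1, glutamate decarboxylase (0.72), the zinc finger genes Zfp28 (0.83) and Zfp935 (0.90), and Rps15a-ps5, a ribosomal pseudogene (0.75). With the block these were, in the same order, 0.49, 0.41, 0.57, 0.65, 0.46, 1.37 and 0.88. The gene with the smallest p of all was the predicted gene Gm13034, at 2.69, 2.65 and 2.71 with vehicle and 4.33, 3.56, 3.63 and 3.69 with KC (1.12 ± 0.20).

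**Figure D3:**
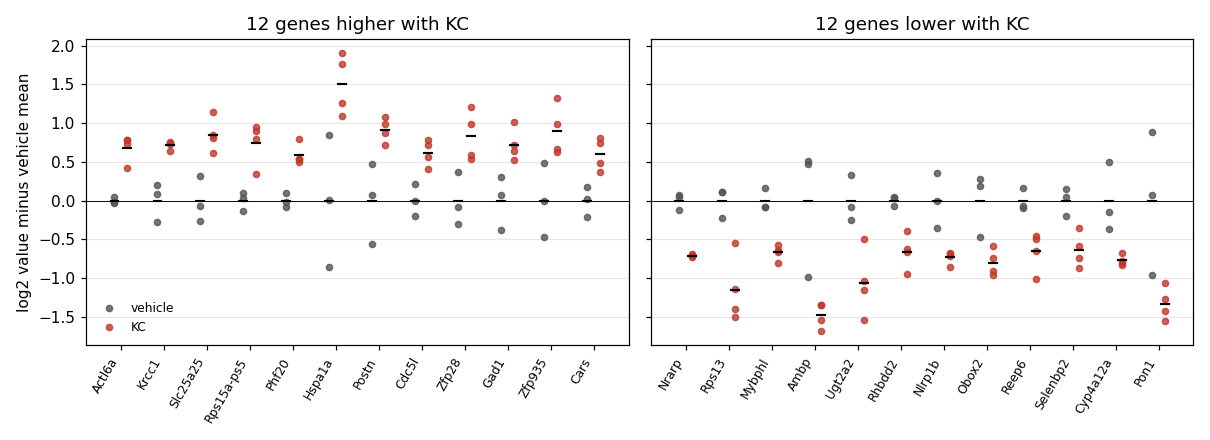
Log2 value of each array minus the vehicle mean (y axis) for the 12 higher (left) and 12 lower (right) genes nearest to a call, with vehicle arrays in gray, KC arrays in red and group means as bars. The genes were picked for groups that do not overlap, and the vehicle arrays of Hspa1a span 2.24 to 3.94 while the KC arrays of Nrarp span 3.20 to 3.24.

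Gene lists covered 1075 measured genes of 1178 listed in 51 lists, and 0 lists held a called member. For counts of members above 0, the background is all genes tested, of which 11379 lay above 0 and 11806 below. Members of a list are not independent, so such counts are a description only. Medians were above 0 for 38 lists and below 0 for 13, and with the liver-positive arrays as a block 26 of the 51 medians turned sign. Apart from the liver list they ran from -0.64 in the tendon list to 0.25 in the giant sarcomere and cytolinker proteins, where 27 of 29 members lay above 0 and 2 were higher at an unadjusted p under 0.05. The members were Ahnak, a giant scaffold protein (0.35), and Flna, filamin A, which crosslinks actin (0.56). The mean of this list was 6.66, 6.06 and 6.27 in the vehicle arrays and 6.98, 6.69, 6.48 and 6.28 in the KC arrays, so the groups overlapped. With the block, the medians of these extremes turned to 0.87 for the tendon list and -0.09 for the giant proteins. The mean of the giant proteins was highest in vehicle 1 among the vehicle arrays and in KC 1 among the KC arrays.

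Protein breakdown genes are of interest because muscle wasting works through them. Of 47 ubiquitin ligases, 1 was higher at an unadjusted p under 0.05 and 39 lay above 0, with a median of 0.15 that turned to -0.06 with the block. It was Rbx1, the RING subunit of cullin ligases, at 5.73, 5.98 and 5.94 with vehicle and 6.51, 6.21, 6.54 and 6.50 with KC (0.56 ± 0.15). Trim63, the muscle ligase MuRF1, read 8.14, 8.69 and 8.54 with vehicle and 8.80, 8.65, 8.75 and 8.68 with KC, a difference of 0.26 (95% interval -0.10 to 0.62). Fbxo32, the muscle ligase atrogin-1, read 8.09, 7.61 and 7.98 with vehicle and 8.13, 7.28, 7.21 and 7.06 with KC (-0.47, interval -1.04 to 0.09). The differences of these 2 atrophy ligases had opposite signs, and both intervals held 0.

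The FoxO factors switch on both of those ligases. Foxo1 read 5.80, 4.93 and 5.31 with vehicle and 5.27, 5.43, 5.27 and 5.19 with KC, a difference of -0.05 (-0.50 to 0.39). Foxo3 read 4.26, 3.58 and 4.39 with vehicle and 4.52, 4.99, 4.32 and 4.78 with KC, a difference of 0.57 (0.06 to 1.09). KC 3 lay below vehicle 4, so its groups overlapped, and Foxo3 was the only one of 27 FoxO list genes at an unadjusted p under 0.05. Fbxo31, an F-box subunit of a cullin ligase, differed by 0.14 (-0.40 to 0.67). The N-degron ligase Ubr2 differed by 0.17 (-0.43 to 0.77), and Ubr4, a giant ligase of that family, by 0.31 (-0.68 to 1.30). Of 32 proteasome subunits, 1 was higher at an unadjusted p under 0.05, the base subunit Psmc5 (0.43), with a median of 0.15, and 26 lay above 0. Of 36 autophagy genes 1 was, Atg16l1 (0.44), which helps attach LC3 to membranes, and the median was 0.13.

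**Figure D4:**
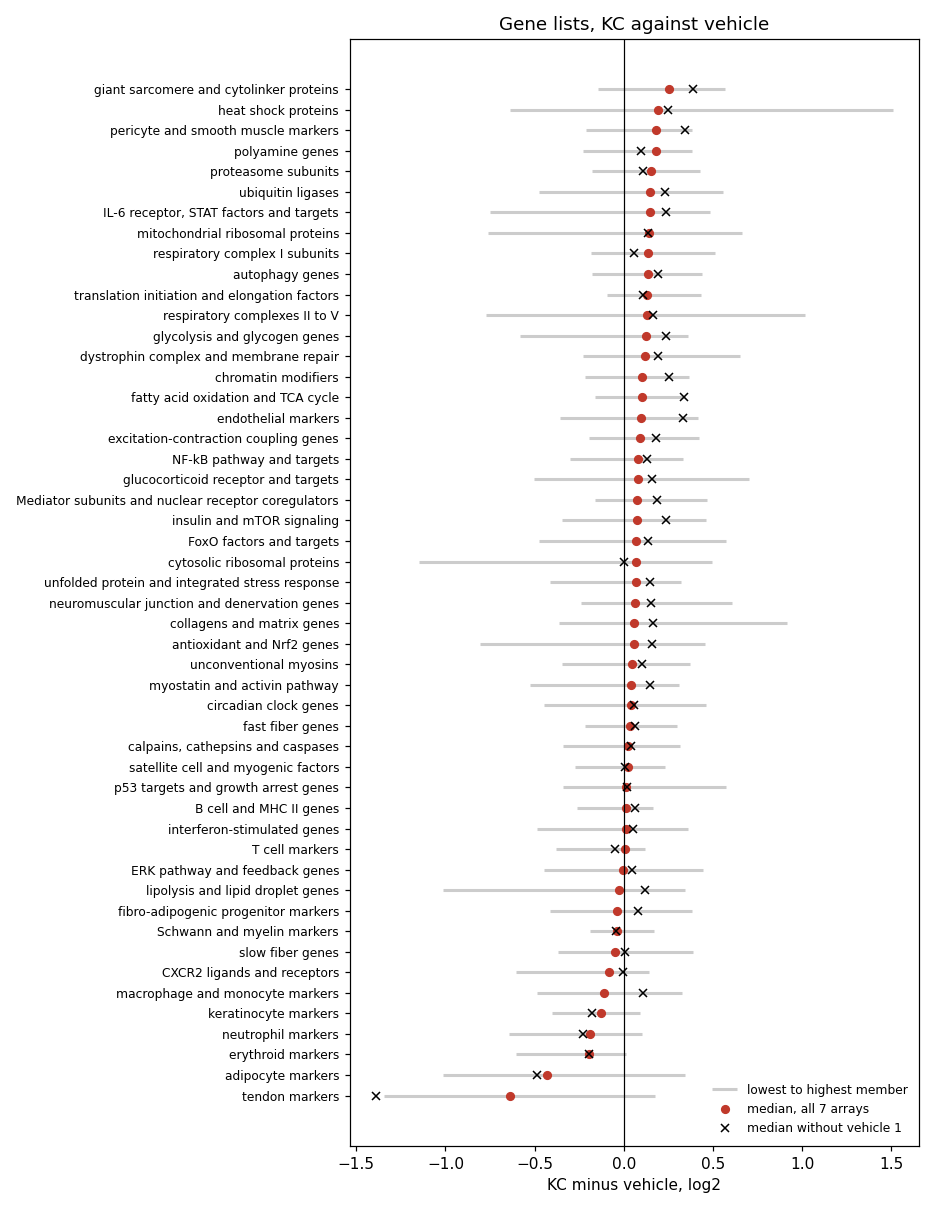
KC minus vehicle on the log2 scale (x axis) for 50 gene lists (y axis, liver markers left out), with the median over all 7 arrays in red, the median without vehicle 1 as a cross and the lowest to highest member in gray. The red medians lie between -0.64 and 0.25.

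Most mitochondrial and translation genes had a mean slightly above vehicle, though none was called. Mitochondrial ribosomal proteins had 4 of 46 members higher at an unadjusted p under 0.05 and 41 above 0, with a median of 0.14. They were Mrps6 (0.44), Mrpl22 (0.42), Mrpl32 (0.66) and Mrps35 (0.37). Respiratory complexes II to V had 2 of 32 members higher, Atp5o, a stalk subunit of ATP synthase (0.66), and Cycs, cytochrome c. Cycs read 3.88, 2.62 and 2.51 with vehicle and 3.97, 3.79, 4.33 and 3.98 with KC (1.01 ± 0.31), where KC 2 overlapped vehicle 1. Its difference was 0.14 with the liver-positive arrays as a block. Complex I subunits had 0 of 34 members at that p and a median of 0.13.

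Collagens and matrix genes had a median of 0.06, with 15 members above 0 and 10 below. Of the 25, 3 were higher at an unadjusted p under 0.05, Postn and both chains of the main basement membrane collagen. Col4a1 read 6.39, 6.31 and 6.47 with vehicle and 6.67, 7.43, 6.91 and 6.97 with KC, with no overlap (0.60 ± 0.18), and Col4a2 differed by 0.53. Adipocyte markers had 4 of 11 members lower and a median of -0.43, which was -0.10 with the liver-positive arrays as a block. They were Cidec, a lipid droplet protein (-0.90), Scd1, a fatty acid desaturase (-1.01), Car3, a carbonic anhydrase (-0.43), and Pck1 (-0.94). Car3 read 12.28, 11.83 and 12.05 with vehicle and 11.43 to 11.83 with KC, and its difference was -0.66 with the block. Which cells of the muscle carried the Car3 signal was not tested, so it need not stand for adipocytes. Pck1 serves glyceride and glucose synthesis. Pck1 is also a liver gene, at 3.36, 4.67 and 5.15 with vehicle and 3.30 to 3.67 with KC, with vehicle 1 inside the KC arrays, and its difference turned to 0.09 with the block.

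Of 20 glucocorticoid receptor targets, 1 was higher at an unadjusted p under 0.05. It was Fkbp5, a co-chaperone that dampens the receptor, at 5.63, 5.73 and 5.75 with vehicle and 5.95, 6.89, 6.25 and 6.53 with KC (0.70 ± 0.21). The list's median was 0.08. Of 21 circadian clock genes, 1 was, Nfil3, a repressor of the clock's output loop (0.46), with a median of 0.04. Satellite cell and myogenic factors had 0 of 15 at that p and a median of 0.02, and neuromuscular junction genes had 2 of 24, Ncam1 (0.49) and the acetylcholine receptor subunit Chrna1 (0.61).

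KC and IL-8 are both CXCR2 agonists and were given at the same dose and schedule, so their arrays can be set side by side. The comparison of IL-8 with KC used only the 9 arrays of those groups, since both groups' differences from vehicle share the same vehicle arrays. In limma 374 genes were called higher with IL-8 (1.61%) and 326 lower (1.41%), 700 in all. This count rested on single arrays. It was 0 without KC 3 or without any of IL-8 2, IL-8 3 and IL-8 4, 1 without KC 4 and 8 without IL-8 5. It was 671 without KC 2, 1130 without IL-8 1 and 1741 without KC 1. It was also 0 with a t-test with unequal variances after Benjamini-Hochberg adjustment, where 3249 genes had an unadjusted p under 0.05.

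Foxo1 was called between the treatments, at 5.27, 5.43, 5.27 and 5.19 with KC and 5.85 to 6.55 with IL-8 (0.97, adjusted p = 0.0642 in limma, no overlap). Fbxo31 lay between 5.89 and 6.80 with KC and between 6.68 and 7.67 with IL-8 (0.78, adjusted p = 0.0942 in limma). Ubr4 lay between 4.91 and 6.69 with KC and between 6.20 and 7.69 with IL-8 (1.33, adjusted p = 0.0851 in limma). Without single arrays the adjusted p of these 3 genes reached 0.188, 0.248 and 0.233, and the difference kept its sign each time. Ubr2 was higher with IL-8 by 0.70 and missed the threshold (adjusted p = 0.103 in limma). Foxo3 differed by 0.38 (adjusted p = 0.222 in limma), Fbxo32 by 0.94 (0.381) and Trim63 by -0.04 (0.961). IL-8 5 stood far above the other IL-8 arrays for both atrophy ligases, at 10.70 for Fbxo32 and 10.26 for Trim63. Without it, IL-8 minus KC was 0.36 for Fbxo32 and -0.44 for Trim63 (adjusted p = 0.466 and 0.106 in limma). Hspb7 and Mrpl32 were also called between the treatments, with IL-8 minus KC at 0.97 and -0.79 (adjusted p = 0.0766 and 0.0647 in limma).

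Of the 51 lists, 21 held a member called higher with IL-8 than with KC and 8 held one called lower. Of all single genes, 1.61% were called higher and 1.41% lower. At such shares a list of many genes can hold a called member, so these numbers of lists were not read as an excess. The highest counts were chromatin modifiers (12 of 55), circadian clock genes (7 of 21), Mediator subunits and coregulators (7 of 36, with 2 lower) and ubiquitin ligases (5 of 47). FoxO factors and targets, insulin and mTOR signaling, autophagy, lipolysis and heat shock genes had 4 each, and the other 12 had between 1 and 3. The counts of lower members were 9 of 46 mitochondrial ribosomal proteins, 8 of 34 complex I subunits, 8 of 32 genes of complexes II to V, 3 of 42 cytosolic ribosomal proteins, and 1 or 2 in the other 4 lists. These counts rest on the same single arrays as the 700 calls. The mean of the chromatin modifiers was 5.63, 5.12 and 5.20 with vehicle and 5.76, 5.43, 5.29 and 5.12 with KC. With IL-8 it lay between 5.53 and 6.00, a range that held vehicle 1 and KC 1, so the groups overlapped. This mean was highest in vehicle 1 and KC 1 of their groups. The chemoreceptor mean was lowest in vehicle 1 of the vehicle arrays, but in KC 2 (1.70) rather than KC 1 (1.72) of the KC arrays.

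**Figure D5:**
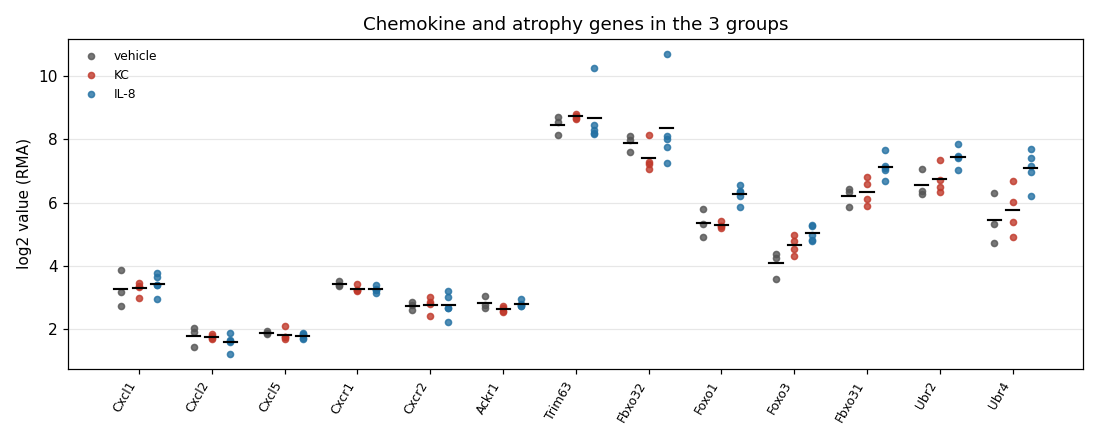
Log2 value (y axis) of 6 chemokine or receptor genes and 7 atrophy genes (x axis) in vehicle (gray), KC (red) and IL-8 (blue) arrays, with group means as bars. Cxcl1 and Cxcr2 overlap in all groups, while the IL-8 arrays of Foxo1 (5.85 to 6.55) lie above the KC arrays (5.19 to 5.43).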

How the data were processed

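RNA from 12 muscles was hybridized by the authors to Affymetrix mouse gene 2.0 ST arrays. The deposited values are RMA-normalized log2 intensities, and the submitters' processing notes name RMA, affy 1.36.1 and R 2.15.1. The authors' methods do not describe the KC arrays. Rows carry Entrez numbers, named here through GEO's platform annotation: 23185 had 1 symbol, 0 had several and 2021 had none. No counts underlie arrays, so depth does not apply. Raw scans were not used here.

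KC (4 arrays) was compared with vehicle (3) in limma 3.58.1 (R 4.3.3) with lmFit and eBayes on all genes with 1 symbol, without covariates, using those 7 arrays, and IL-8 (5) with KC likewise. The call threshold is given above. Named genes were the 12 nearest to a call in each direction, the member of each list with the smallest p, fixed chemokine, atrophy, liver and muscle genes, and the smallest p in each direction. Other list members at an unadjusted p under 0.05, and pathway genes named for their role, were added after their values were seen. The members, lists and alternatives were chosen with earlier results of these data known. The fit was tested on simulated data. The alternatives covered normalization, filters, weights, blocks, thresholds, other tests and each array left out.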

Additional observations from a re-analysis of the deposited data

Results flagged for a closer look

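Single arrays stood apart from the rest of their group for some of the genes named. Chance alone gives such a gap in about 1 of 20 groups. Of 167 sets of KC values (116 genes and 51 list means), 11 had one. Actl6a was lowest in KC 2 (5.289), Krcc1 lowest in KC 4 (5.68) and Phf20 highest in KC 1 (5.464). Gm13034 was highest in KC 1 (4.33, with the next KC array at 3.691). Sox10, a Schwann cell factor, was highest in KC 3 (3.423), and Rbx1 was lowest in KC 2 (6.213). Cxcl5 was highest in KC 4 (2.093) and Cxcr1 highest in KC 2 (3.417). Col4a2 was highest in KC 2 (6.757). The mean of the liver markers was highest in KC 3 (3.335), and that of the translation factors highest in KC 4 (7.158).

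Of 116 sets of IL-8 values, 13 had an array apart. IL-8 1 was highest for the liver genes Ambp (4.231), Alb (7.705) and Fgb (6.821) and for Ackr1 (2.963), and lowest for Sox10 (2.66). IL-8 5 was highest for Trim63 (10.26), Fbxo32 (10.7), Cxcl15 (2.176), Hspa1b (4.441) and Med17 (4.594) and lowest for Stac3 (7.702) and Smox (7.234). Acta1 was lowest in IL-8 3 (11.91).

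Of the 116 genes named, 8 were called between the treatments in limma. IL-8 minus KC was 0.9701 for Foxo1, 0.7754 for Fbxo31, 1.327 for Ubr4 and 0.97 for Hspb7. It was -0.6975 for Rps15a-ps5, -0.711 for Ndufb11, -0.5869 for Mrps6 and -0.7909 for Mrpl32. With single arrays left out, each of the 8 kept its sign and stayed called in 2 to 4 of 9 fits.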

How the results depend on the processing

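The count of 0 genes called with KC against vehicle was 0 in 20 of the 21 alternatives. A stricter adjusted p and no fold change minimum could not have added calls. Storey q-values, another adjustment of the same limma p-values, also had 0.994 as their smallest. The exact permutation test has few splits, so these alternatives say nothing about stability. The count was 92 without vehicle replicate 1, so single arrays left out gave 0 to 92. With the replicate block it was 0, where 1086 genes had an unadjusted p under 0.05. Same-numbered KC and vehicle arrays correlated in their deviations at 0.362, -0.167 and 0.218, so the numbers were not taken to pair the arrays. For IL-8 against KC, the 700 calls became 1 with all 12 arrays in one fit and 1 at an adjusted p of at most 0.05. They became 1193 with array weights, 1147 with no fold change minimum and 1130 with the liver-transcript block. Only IL-8 1 carries that block here, so the fit equals leaving out IL-8 1. The calls became 0 with the replicate block, 0 with a t-test with unequal variances and 0 with the exact permutation test. Leaving out single arrays gave 0 to 1741. The causes were not tested.

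Of 116 named genes, 96 kept the sign of KC minus vehicle throughout. With the liver-transcript block the sign turned for Ighm (0.0713), Traf6 (-0.00735), Cxcl2 (0.33), Fbxo31 (-0.0744), Ubr2 (-0.32), Ubr4 (-0.54), Alb (0.44), Fgb (0.13), Pck1 (0.0903), Fmod (0.97), Tnmd (0.99), Dusp6 (-0.28) and Stat3 (-0.19). Cxcl1 became -0.16 with array weights and -0.0248 with the replicate block, where Hspa8 became -0.029. Cxcl2 became 0.0359, Acta1 0.11 and Socs3 0.00888 with quantile normalization, and Cxcl2 became 0.0224 and Acta1 0.0246 centred on the array median. With single arrays left out, Cxcl1 ran from -0.23 to 0.33, Cxcl2 from -0.21 to 0.092, Cxcr2 from -0.056 to 0.15, Foxo1 from -0.26 to 0.17, Fbxo31 from -0.037 to 0.29, Ubr2 from -0.0395 to 0.41, Ubr4 from -0.052 to 0.73, Acta1 from -0.12 to 0.024, Dusp6 from -0.00341 to 0.28, Hspa1b from -0.14 to 0.44, Hspa8 from -0.029 to 0.097 and Socs3 from -0.23 to 0.034. IL-8 minus KC for single genes was refitted without each array after the data were seen, and for Trim63 it ran from -0.44 to 0.0824. The liver-transcript block moved 30 of 51 list medians by more than the spread between arrays, and turned the sign of 26, and 26 named genes were too dim to have a value when dim genes were left out.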

Other observations

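Small nucleolar RNA genes, which guide the chemical modification of ribosomal RNA, were looked at after their values were seen. The 108 genes had a median of 0.36 with KC against vehicle, and 99 lay above 0, against 11379 of all 23185 genes. At an unadjusted p under 0.05, 13 (12.0%) were higher, against 1.66% of all genes. Without overlap between groups, 4 of the 108 were higher with KC and 1 was lower, against 2.5% and 2.45% of all genes. With the liver-positive arrays as a block the median of the 108 genes was 0.95. Their mean was 6.194, 7.0004 and 7.133 in vehicle 1, 2 and 4 and 6.64, 7.41, 7.06 and 7.46 in KC 1 to 4, so the groups overlapped. The IL-8 arrays lay between 6.09 and 6.47, and the median of IL-8 minus KC was -0.80. The mean was lowest in vehicle 1 and KC 1 of their groups, the arrays in which the chromatin modifiers were highest. The part of array quality in these values was not tested.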
